A study of Triticum aestivum with 34 samples.

Results

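Messenger RNA of basal wheat spikelets was compared between 2 times of ear growth, 9 and 12 days past the terminal spikelet stage, when the young ear has made its last spikelet. The gene models described are those with an FPKM (fragments per kilobase of transcript, scaled for library total) of 1 or more in at least 2 of the 6 libraries compared, which kept 56619 of the 162233 models in the table. All plants were bread wheat (Triticum aestivum) of the genotype shimai22 and were untreated. The comparison used 3 basal day 9 and 3 basal day 12 libraries. Central spikelets, with 3 libraries at each of the same days, served to compare the step between days. All 34 libraries (basal and central spikelets at days 6, 9, 12, 15, 21 and 27) entered the statistical fit. Each library was made from spikelets, which hold glumes, florets and an axis. The labels do not say how many plants a library pooled or whether replicates came from separate plants, so the p-values measure the spread between these libraries, which may be technical.

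A wheat spikelet is a short branch of the ear that bears protective glumes and several florets. Spikelets at the base of the ear are known to grow more slowly and often to stay small or infertile, while those of the centre set most grain. Over the days after the terminal spikelet stage a spikelet passes from making organs by cell division to enlarging and greening them, which calls on wall-loosening enzymes, the waxy cuticle of the epidermis and the proteins of the chloroplast. Floral genes are given as a description of the tissue. They do not check the position or the day, since reported members are those that passed the FPKM rule in these libraries. The MADS-box genes, which specify floral organs, had 73 reported members, and MADS-box transcription factor 1-like (TraesCS4D03G0586600), a relative of the SEPALLATA genes, stood at 21.7, 19.4 and 20.5 FPKM at day 9 and 34.2, 33.4 and 32.8 FPKM at day 12.

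The 6 libraries held 97584344 to 119144474 estimated counts, with 51995 to 53714 models at 1 FPKM or more. Pearson correlations of log2 library-scaled counts across the 71963 tested models were 0.975 to 0.978 among the day 9 libraries, 0.968 to 0.972 among the day 12 libraries and 0.933 to 0.949 between the days. These are correlations across genes, which are not independent replicates. Between day 9 and day 12, 12839 reported models (22.7%) were higher and 11143 (19.7%) lower at an adjusted p under 0.05 (edgeR quasi-likelihood test, Benjamini-Hochberg adjustment over 71963 models), 42.4% in all. Large rises outnumbered large falls: 4010 models (7.08%) rose over 2-fold against 1272 (2.25%) that fell over 2-fold, and 1048 (1.85%) against 230 (0.406%) passed 4-fold. The FPKM values of the groups did not overlap for 16430 models that were higher (29%) and 12545 that were lower (22.2%). The median log2 difference over all reported models was 0.00. In the wheat subgenomes A, B and D, 22.8%, 22.5% and 22.7% of models were higher and 19.7%, 19.1% and 20.3% lower. At the limit of the FPKM rule, 1631 models had a second highest value of 1 to 1.1 FPKM and 1785 models just outside had one of 0.9 to below 1.

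The change was set against that of the central spikelets over the same days by testing the difference of the steps, the log2 change in basal minus the log2 change in central spikelets. That difference was called for 6526 reported models in the upward direction (11.5%) and 5365 in the downward direction (9.48%), 21% in all. In central spikelets 17393 of these models (30.7%) changed between the days, 9201 higher and 8192 lower. Of 9997 models called in both steps, 1403 had opposite signs. Below, "the steps differed" is written only where this test passed, a log2 value is a difference between days (day 12 minus day 9) with its standard error, and every adjusted p is from the edgeR quasi-likelihood fit of all models. Gene lists were made from words in the deposited descriptions. Their counts cover only members that passed the FPKM rule, and are a description to be read against the shares of all reported models.

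Of all lists, the small heat shock proteins had the lowest median difference. Small heat shock proteins, chaperones that hold unfolding proteins in solution, fell in 52 of 62 reported members (96 in the table), each by more than 2-fold, and rose in 0. Their median log2 difference was -5.88 against 0.00 for all reported models. A member low elsewhere could pass the FPKM rule through the basal day 9 libraries alone. The counts, median, sums and class counts given here all rest on that set. With the FPKM rule applied to the other 28 libraries instead, 58 of 76 members fell and 0 rose. Their summed level was 1306 to 1482 FPKM in the basal day 9 libraries and 110.2 to 147 FPKM in the basal day 12 libraries, with 269 to 326 FPKM at basal day 6 and 109 to 139 FPKM at basal day 15. The basal day 9 libraries therefore stood above all other basal libraries of days 6 to 15 in this sum. In central spikelets the sum was 226 to 263 FPKM at day 9 and 75.2 to 91.2 FPKM at day 12, the median step was -1.40, and the steps differed downward in basal spikelets for 30 members and upward for 1. In RNA of whole organs, fewer cells of a type and less RNA per cell cannot be told apart.

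The 17.9 kDa class I heat shock protein-like gene (TraesCS4D03G0519600; chromosome 4D, 365507276 to 365508116) stood at 46.8, 34.5 and 36.1 FPKM at day 9 and 0.06, 0.07 and 0 FPKM at day 12. All day 9 libraries were high and all day 12 libraries at or near 0, and the fitted log2 difference was -9.67 ± 0.49 (adjusted p = 3.37e-16; -10.29 without day 12 replicate 2). Central spikelets held 0.2, 0.1 and 0.03 FPKM at day 9 and 0.17, 0.08 and 0 FPKM at day 12, so the gene was low in central libraries of both days. For the 17.5 kDa class II gene (TraesCS3D03G0239400; chromosome 3D, 68927840 to 68928562) the values were 22.1, 21.8 and 18.6 FPKM at day 9 and 0.04, 0.04 and 0.09 FPKM at day 12, a log2 difference of -8.44 ± 0.37 (adjusted p = 1.44e-16). The 18.6 kDa class III gene (TraesCS6D03G0752200) went from 30.9, 28.4 and 26.4 FPKM to 0.17, 0.31 and 0.43 FPKM, a 95.7-fold fall. A chloroplastic small heat shock protein-like gene (TraesCS4D03G0546300; chromosome 4D, 384942617 to 384943785) had 36.3, 36.8 and 32.9 FPKM at day 9 and 0.16, 0.09 and 0.15 FPKM at day 12, a 264-fold fall (adjusted p = 1.19e-17). At day 12 these genes had few counts, at most 8, 7, 41 and 21 per library in the order named, so the exact size of the falls is loosely fixed. By class, class II fell in 8 of 8 members, class I in 15 of 16, class III in 3 of 3 and the mitochondrial class in 13 of 15. In the chloroplast class, which holds the gene with the fall given above, 3 of 7 members fell, 4 were not called, and the median log2 difference was -0.07. The 10 members that were not called had group means of 0.797 to 7.61 FPKM at day 9 and 0.86 to 3.82 FPKM at day 12.

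The larger chaperones fell in 76 of 126 reported members and rose in 15 (median -0.58; median -0.28 in central spikelets), and the steps differed downward for 57 members and upward for 10. With the FPKM rule applied to the other 28 libraries instead, 23 of 155 members rose and 80 fell. HSP90, which holds signalling proteins ready for use, fell in 14 of 15 members, and its summed level was 1446 to 1930.5 FPKM at day 9 and 592 to 780.5 FPKM at day 12. HSP101 and ClpB1, which pull proteins out of aggregates, fell in 9 of 11 members. The 70 kDa peptidyl-prolyl isomerase-like genes, co-chaperones that bind HSP90, fell in 7 of 10 members, with 3 not called and a median log2 difference of -1.44. The 2B copy (TraesCS2B03G0768100) stood at 72.5, 81.8 and 77.4 FPKM at day 9 and 1.19, 1.17 and 1.98 FPKM at day 12 (log2 difference -5.77 ± 0.16, adjusted p = 1.48e-19), while central spikelets went from 13.1, 12.5 and 11.6 FPKM to 3.15, 3.4 and 3.25 FPKM. The 2D copy (TraesCS2D03G0640500) went from 47.4, 48.9 and 43.3 FPKM to 0.4, 0.48 and 0.33 FPKM, a 115-fold fall. The BAG regulators of HSP70 rose more often than they fell, with 10 of 19 members higher and 2 lower. Their log2 differences ran from -5.08 to 1.69. Their sums overlapped, with 231.7 to 247.1 FPKM at day 9 and 244.3 to 288.8 FPKM at day 12. Among them BAG family molecular chaperone regulator 1-like (TraesCS5A03G0760100) rose from 7.18, 7.38 and 7.64 FPKM to 20.5, 22.9 and 20.1 FPKM (2.797-fold, adjusted p = 2.83e-10).

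Heat stress transcription factors, which switch on the chaperone genes, fell in 14 of 49 reported members (28.6%) and rose in 3 (6.1%). Over all reported models 19.7% were lower and 22.7% higher. The count of rises was 1 without day 9 replicate 2, without day 12 replicate 2 or without day 12 replicate 3. A putative heat stress transcription factor A-6a gene (TraesCS7A03G0882300) had 3.69, 3.2 and 3.05 FPKM at day 9 and no count in any day 12 library. Against a floor of 12 counts per library it was at least 49.97-fold lower at day 12. Factor A-2c-like (TraesCS1D03G0889300) had 2.97, 2.13 and 2.59 FPKM at day 9 and 2.78, 4.98 and 4.84 FPKM at day 12; the ranges overlapped, the log2 difference was 0.69 ± 0.21 (adjusted p = 0.0115), and the call was lost without day 9 replicate 2 (adjusted p = 0.0701), without day 12 replicate 2 (0.0896) and without day 12 replicate 3 (0.0601).

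**Figure D1:**
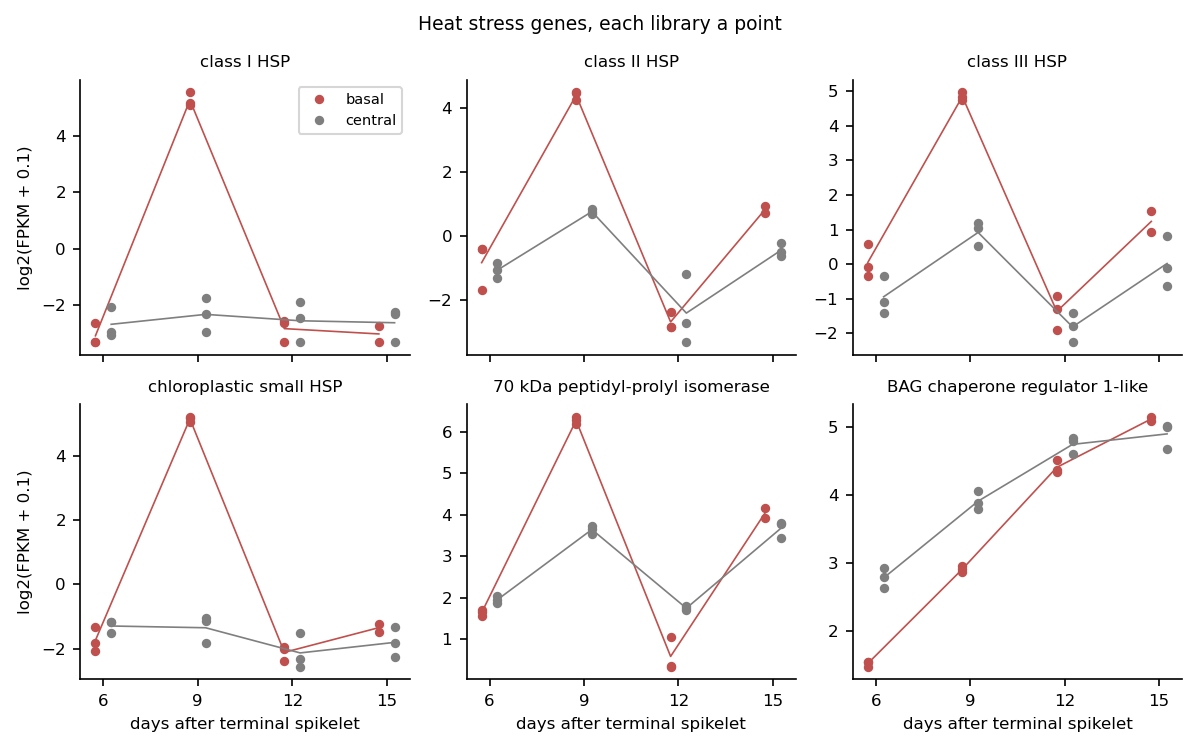
FPKM of 6 heat stress genes on a log2(FPKM + 0.1) scale against days after the terminal spikelet stage; each point is 1 library, red basal and grey central spikelets, and lines join the group means. For the 4 small heat shock genes and the 70 kDa isomerase, the basal day 9 points lie above the basal points of days 6, 12 and 15; the BAG regulator is higher at day 12 than at day 9 in both positions.

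Genes of the cell wall and the cuticle held many of the large rises. Proline-rich and extensin proteins, structural glycoproteins of the wall, rose in 47 of 80 reported members (319 in the table) and fell in 4, 44 of the rises being over 2-fold. Their median log2 difference was 1.27 in basal and 0.25 in central spikelets, and the steps differed upward in basal spikelets for 40 members and downward for 1. The summed level was 480.1 to 509 FPKM at basal day 9 and 1105 to 1373 FPKM at basal day 12, and 1191 to 1311 FPKM already at central day 9. Proline-rich extensin-like protein EPR1 (TraesCS6A03G0241100; chromosome 6A, 75734027 to 75741081) had 1.94, 1.88 and 1.31 FPKM at day 9 and 43.2, 57.6 and 40.5 FPKM at day 12. Every day 12 library lay above every day 9 library, the rise was 27.1-fold (log2 4.76 ± 0.28, adjusted p = 5.8e-13), and the central libraries held 54.5, 58.96 and 54.3 FPKM at day 9 and 134, 146 and 104 FPKM at day 12. A proline-rich protein 4-like gene (TraesCS2D03G0118400) went from 0.18, 0.13 and 0.2 FPKM to 4.47, 5.47 and 4.68 FPKM (log2 4.79 ± 0.25, adjusted p = 8.03e-15). The 14 kDa proline-rich protein DC2.15 (TraesCS6A03G0672400) fell, from 3.64, 2.49 and 4.24 FPKM to 0.92, 0.74 and 0.6 FPKM.

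Class III peroxidases, secreted enzymes that cross-link wall polymers, rose in 61 of 98 reported members and fell in 5 (median 0.89; 0.45 in central spikelets). A peroxidase 2-like gene on 2D (TraesCS2D03G0228300) had 0.79, 0.79 and 0.38 FPKM at day 9 and 14.01, 20.3 and 13.8 FPKM at day 12, a rise of 24.3-fold (log2 4.60 ± 0.22, adjusted p = 2.38e-14). Another on 2B (TraesCS2B03G0306900; chromosome 2B, 101012192 to 101014080) rose from 0.12, 0.33 and 0.19 FPKM to 9.36, 10.2 and 8.09 FPKM, against 14.7, 12.7 and 13.04 FPKM and 19.3, 23.4 and 16.1 FPKM in the central libraries of the same days. Peroxidase 43-like (TraesCS4D03G0203300) rose from 1.15, 1.15 and 1 FPKM to 16.8, 23.8 and 18.7 FPKM. Peroxidase 40 (TraesCS5A03G0784800) fell from 15.1, 17.3 and 17.8 FPKM to 4.11, 7.4 and 8.04 FPKM (log2 -1.39 ± 0.30, adjusted p = 0.000737), and it fell in central spikelets too, by 4.11-fold. The number of peroxidases lower was 3 without day 12 replicate 1.

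Most reported enzymes that remodel wall polysaccharides rose. Pectin enzymes were higher in 103 of 165 and lower in 4 (2 without day 12 replicate 2). Enzymes acting on xyloglucan and other glucans were higher in 73 of 118 and lower in 8 (3 without day 9 replicate 1; 4 or 5 without day 9 replicate 2, day 12 replicate 1 or day 12 replicate 2). Xyloglucan endotransglucosylases, which cut and rejoin the tethers between cellulose fibres, rose in 37 of 51 members and fell in 0, and their summed level was 762 to 877 FPKM at day 9 and 1237 to 1661 FPKM at day 12. Pectinesterases rose in 16 of 28, polygalacturonases in 31 of 50 and galacturonosyltransferases, which build pectin, in 31 of 53. Probable beta-D-xylosidase 7 (TraesCS4B03G0679500; chromosome 4B, 517190729 to 517195415), which trims xylose from wall polymers, had 0.3, 0.43 and 0.29 FPKM at day 9 and 6.39, 7.44 and 5.78 FPKM at day 12 (log2 4.23 ± 0.22, adjusted p = 2.09e-14). A polygalacturonase gene (TraesCS5A03G1085200) rose from 0.2, 0.28 and 0.15 FPKM to 2.46, 2.54 and 2.69 FPKM, while the central libraries held 4.44, 5.2 and 5.66 FPKM and 5.21, 5.09 and 4.18 FPKM. For pectin enzymes the steps differed upward in basal spikelets for 47 members and downward for 4; for glucan enzymes these counts were 35 and 13.

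Expansins, proteins that loosen walls without cutting them, had 19 of 55 higher and 5 lower (3 lower without day 9 replicate 1 or without day 12 replicate 1). Expansin-like A1 (TraesCS5A03G1169200) rose from 3.76, 3.25 and 3.38 FPKM to 7.7, 7.87 and 6.7 FPKM (2.099-fold, adjusted p = 1.09e-07). Aquaporins, the water channels of expanding cells, rose in 18 of 41 members and fell in 2 (1 without day 12 replicate 1), with medians of 0.49 in basal and -0.19 in central spikelets and steps that differed upward for 20 members. Plasma membrane aquaporin PIP1-5-like (TraesCS6D03G0894100) had 7.46, 6.69 and 6.19 FPKM at day 9 and 16.1, 19.5 and 16.7 FPKM at day 12 (log2 1.34 ± 0.15, adjusted p = 1.02e-07). The probable vacuolar aquaporin TIP4-1 (TraesCS4D03G0799400) went the opposite way in the positions: it fell from 10.99, 9.68 and 10.9 FPKM to 4.84, 7.98 and 6.85 FPKM in basal spikelets (log2 -0.71 ± 0.20, adjusted p = 0.00594; 0.0542 without day 12 replicate 1) and rose from 0.76, 0.43 and 0.67 FPKM to 7.45, 6.89 and 6.03 FPKM in central ones. Secondary wall and lignin genes rose in 113 of 244 and fell in 25; within them fasciclin-like arabinogalactan proteins, found at the cell surface, rose in 36 of 47 and fell in 0, with 274 to 293 FPKM at day 9 and 569.9 to 711 FPKM at day 12 in sum. Glucuronoxylan 4-O-methyltransferase 1-like (TraesCS7B03G1305600), which decorates xylan, rose from 1.37, 1.35 and 1.18 FPKM to 8.4, 8.62 and 6.87 FPKM.

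The cuticle and epidermis list had 204 of 380 reported members higher (1107 in the table), 125 of them over 2-fold, and 17 lower (11 without day 12 replicate 1). With the FPKM rule on the other 28 libraries, 26 of 629 were lower. Its median log2 difference was 0.61 in basal and 0.07 in central spikelets, and the steps differed upward for 150 members and downward for 15. Lipid-transfer proteins, which carry cuticle lipids through the wall, rose in 51 of 93 and summed to 2326 to 2657 FPKM at day 9 and 4113 to 5649 FPKM at day 12. Ketoacyl-CoA synthases, which lengthen the fatty acids of waxes, rose in 27 of 48, and GDSL esterase/lipases, a family that includes cutin synthases, in 83 of 151. The genes of the list named CER did not share the rise, with 3 of 16 higher, 3 lower and a median of 0.01. They summed to 286.7 to 310.4 FPKM at day 9 and 259.9 to 281.8 FPKM at day 12. WIN1-like ethylene-responsive factors are named for an activator of wax and cutin genes in Arabidopsis. Of 8 reported, 5 rose and 0 fell, with 79.7 to 99.1 FPKM at day 9 and 112.3 to 125.1 FPKM at day 12 in sum. The 7A copy (TraesCS7A03G0916200; chromosome 7A, 553300440 to 553301982) had 2.28, 1.92 and 2.12 FPKM at day 9 and 12.6, 15 and 13.6 FPKM at day 12, a rise of 6.38-fold (log2 2.67 ± 0.17, adjusted p = 2.75e-12). Homeobox protein ROC6-like (TraesCS5D03G0722700), of a class of regulators named for their expression in the outer cell layer, rose from 6.61, 7.25 and 7.34 FPKM to 16.6, 15.7 and 14.7 FPKM (2.17-fold). GDSL esterase/lipase At5g45910-like (TraesCS7D03G0245800) went from 3.57, 3.04 and 2.74 FPKM to 20.7, 30.04 and 21.2 FPKM, and the central libraries were higher at both days, with 49.6, 42.3 and 43.9 FPKM and 65.1, 72.6 and 61.1 FPKM. GDSL esterase/lipase At5g41890 (TraesCS2B03G1058000) fell from 2.45, 3.3 and 2.61 FPKM to 0.87, 1.07 and 1.13 FPKM (log2 -1.48 ± 0.31, adjusted p = 0.000434; DESeq2 adjusted p = 0.269).

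**Figure D2:**
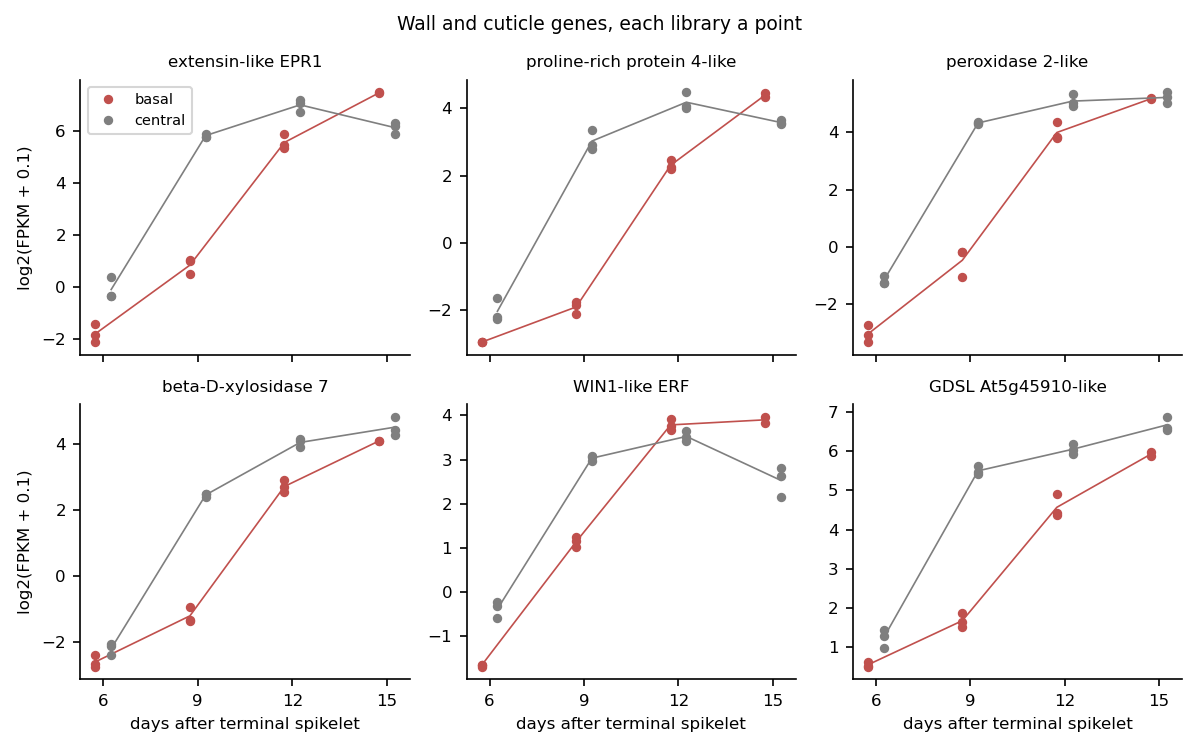
FPKM of 6 wall and cuticle genes on a log2(FPKM + 0.1) scale against days after the terminal spikelet stage; each point is 1 library, red basal and grey central spikelets, and lines join the group means. In all 6 panels the basal day 12 points lie above the basal day 9 points, and the central points are above the basal ones at day 9.

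Genes of photosynthesis were counted in 2 lists. Light-harvesting proteins, which bind chlorophyll and feed the photosystems, rose in 51 of 69 and fell in 0 (33 rose without day 12 replicate 2), and photosystem and Calvin cycle genes rose in 72 of 91 and fell in 0. The day 12 libraries spread more than those of day 9: light-harvesting genes summed to 1629.7 to 1885 FPKM at day 9 and 2364 to 3226 FPKM at day 12. Calvin cycle enzymes, which fix carbon, had a median of 1.41 in basal and 1.26 in central spikelets. Phosphoribulokinase (TraesCS6D03G0599500), which makes the acceptor of carbon dioxide, rose from 9.34, 10.02 and 10.3 FPKM to 31.5, 35.3 and 33.4 FPKM (3.31-fold, adjusted p = 2.09e-08) and from 29.1, 26.3 and 28.6 FPKM to 68.3, 75.2 and 65.3 FPKM in central spikelets, and the difference of these steps did not pass (log2 0.41 ± 0.24, adjusted p = 0.267). For light-harvesting genes the median was 0.70 in basal and -0.19 in central spikelets, and the steps differed upward for 39 members and downward for 0. A CP24 light-harvesting gene of the low-confidence class (TraesCS7D03G0918200LC) had 2.06, 2.1 and 2.28 FPKM at day 9 and 6.43, 8.72 and 7.06 FPKM at day 12, against 5.59, 5.11 and 5.63 FPKM and 6.9, 5.96 and 5.63 FPKM in central libraries.

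Histone and cell division genes fell more often than they rose. Histones, which package newly made DNA, fell in 200 of 279 reported members and rose in 3 (median -0.76), and 35 of the falls were over 2-fold. The summed level went from 28673 to 33829 FPKM to 16876 to 21472 FPKM. Without day 12 replicate 1 the count of histones lower was 123. In central spikelets the median was -1.13, and the steps differed for 9 members upward and 1 downward. Protein H2A.7 (TraesCS2A03G0459100) stood at 122, 94.3 and 98.5 FPKM at day 9 and 44.9, 56.3 and 47.04 FPKM at day 12 (log2 -1.11 ± 0.12, adjusted p = 4.44e-08). Histone members are near-identical copies, and how shared reads were assigned is not given in the sources used here. Cell division genes fell in 189 of 355 and rose in 31 (median -0.47; -0.55 in central spikelets). The MCM and licensing proteins, which load the helicase on DNA, fell in 19 of 26, kinesins, the motors of the spindle and of transport, in 54 of 100, and cyclins A and B in 10 of 33. Kinesin-like protein KIN-14H (TraesCS2A03G1125000) fell from 12.5, 14.1 and 13.5 FPKM to 8.49, 6.97 and 8.19 FPKM (log2 -0.79 ± 0.07, adjusted p = 1.29e-09), while KIN-7H (TraesCS7B03G0457400) rose from 20.7, 21.9 and 23.3 FPKM to 41.2, 36.1 and 39.95 FPKM.

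Cytosolic ribosomal proteins, whose genes follow the demand for protein synthesis, fell in 177 of 448 reported members and rose in 15, with a small median of -0.22; the count of falls was 97 without day 12 replicate 1. The 40S ribosomal protein S3-3 (TraesCS2B03G0477700) stood at 43.4, 41 and 41.4 FPKM at day 9 and 30.1, 25.2 and 28.2 FPKM at day 12 (log2 -0.63 ± 0.07, adjusted p = 3.45e-08), whereas a 60S L19-1-like gene (TraesCS4D03G0422600) rose from 6.76, 7.96 and 7.17 FPKM to 14.8, 15.1 and 16.2 FPKM. Meiosis genes fell in 28 of 61 and rose in 3. The PAIR genes, needed for pairing of homologous chromosomes in rice, fell in 13 of 16 members. PAIR3-like (TraesCS5B03G0117900) went from 1.88, 2.38 and 2.38 FPKM to 1.02, 0.96 and 1.19 FPKM (2.14-fold lower, adjusted p = 2.29e-05). In central spikelets its step was -1.01 ± 0.18 (adjusted p = 0.000131), and the difference of the steps did not pass (log2 -0.09 ± 0.26, adjusted p = 0.874).

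Among regulators of organ form, the SPL and TCP factors, which time growth phases and limit cell division in organs, rose in 25 of 71 reported members, fell in 2 and were not called in 44 (1 lower without day 9 replicate 3, day 12 replicate 2 or day 12 replicate 3), with a median of 0.28 in basal and -0.20 in central spikelets, and the steps differed upward for 28 members and downward for 0. Squamosa promoter-binding-like protein 3 (TraesCS6A03G0258300) rose from 20.5, 21.6 and 19.7 FPKM to 40.01, 44.4 and 36.4 FPKM (log2 0.94 ± 0.11, adjusted p = 1.44e-07) and held 33.01, 34.7 and 35.9 FPKM and 35.4, 34.8 and 36.5 FPKM in central libraries. TEOSINTE BRANCHED 1-like (TraesCS5D03G0003700), named for a maize gene that holds back branches, fell from 4.55, 3.59 and 2.64 FPKM to 1.68, 1.98 and 1.96 FPKM (log2 -0.96 ± 0.26, adjusted p = 0.005). The 3 genes described as HOX12, homeobox-leucine zipper factors, were all lower, with log2 differences of -0.93 to -0.82, and their steps differed from the central ones. The 4A copy (TraesCS4A03G0078800) had 53.5, 49.1 and 46.5 FPKM at day 9 and 27.96, 25.9 and 29.4 FPKM at day 12, against 1.41, 1.63 and 1.19 FPKM and 2.86, 2.75 and 2.12 FPKM in central spikelets.

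MADS-box genes had 16 of 73 reported members higher and 8 lower, shares at or under those of all reported models, and without day 12 replicate 3 the counts were 10 and 5. MADS-box transcription factor 1-like, whose levels are given above, rose by 1.59-fold (adjusted p = 8.01e-08), and TaAGL21 (TraesCS5A03G1207200) fell from 8.47, 8.54 and 8.1 FPKM to 5.33, 5.83 and 3.54 FPKM. YABBY genes, of a family that sets the lower side of lateral organs, had 6 of 15 reported members higher and 4 lower, with a median of 0.25. They summed to 186.7 to 192.5 FPKM at day 9 and 206.5 to 210.4 FPKM at day 12. The member with the lowest log2 difference, YABBY 4-like (TraesCS6A03G0650400), fell from 15.9, 15.1 and 14.5 FPKM to 6.93, 6.29 and 6.69 FPKM (log2 -1.22 ± 0.14, adjusted p = 2.05e-07). Anther, tapetum and pollen genes had 12 of 42 reported members higher (28.6%) and 11 lower (26.2%), with 192 in the table. Over all reported models the shares were 22.7% and 19.7%. Cytochrome P450 704B1 (TraesCS4A03G0032700), an enzyme of the pollen wall precursor pathway, went from 0.02, 0.07 and 0.12 FPKM to 1.33, 2.37 and 3.01 FPKM in basal spikelets (log2 4.89 ± 0.42, adjusted p = 3.18e-11; 5.49 without day 9 replicate 3), and the central libraries were already at 6.39, 6.47 and 6.63 FPKM at day 9 and at 13.3, 11.9 and 14.01 FPKM at day 12. The tapetum regulators described as TDR, EAT1 or UDT1 fell in 8 of 15 reported members and rose in 0. Their median was -0.93 in basal and -0.89 in central spikelets, and the steps differed upward for 6 members and downward for 7. Their basal sums overlapped, with 42.6 to 45.9 FPKM at day 9 and 30.5 to 47.3 FPKM at day 12.

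Jasmonate genes had basal medians near or below 0 and central medians above it. Their basal counts are to be read against 22.7% higher and 19.7% lower over all reported models. TIFY proteins, repressors that are themselves induced by the hormone, had 39 of 50 members reported, of which 1 rose and 8 fell; the median log2 difference was -0.34 in basal and 1.91 in central spikelets, and the steps differed downward for 30 and upward for 0. TIFY 10c-like on 5D (TraesCS5D03G0513000) had 20.1, 18.3 and 21.7 FPKM at day 9 and 8.45, 10.3 and 11.7 FPKM at day 12, a fall of 2.01-fold (adjusted p = 0.00053), whereas central spikelets rose from 0.86, 0.65 and 1.42 FPKM to 6.84, 4.93 and 6.18 FPKM. Its 5A copy (TraesCS5A03G0549300) fell from 19.5, 17.9 and 20.1 FPKM to 7.84, 9.59 and 10.3 FPKM, with a central step of 2.35 ± 0.25 (adjusted p = 4.9e-08). For both copies the basal values were above the central ones at each day. Jasmonate synthesis genes had 2 of 52 higher (1 without day 9 replicate 2 or day 12 replicate 2) and 11 lower. The share lower, 21.2%, was near that of all reported models. Their steps differed downward for 22 and upward for 0. The number of falls was 6, 6 and 5 without day 9 replicate 1, day 9 replicate 3 and day 12 replicate 1. 12-oxophytodienoate reductase 7 (TraesCS7A03G0999600), the enzyme before beta-oxidation in this pathway, fell from 6, 5.31 and 6.21 FPKM to 2.95, 3.83 and 3.94 FPKM. A 60 kDa jasmonate-induced protein-like gene (TraesCS2A03G1114900) showed the reverse, rising from 2.83, 2.52 and 3.71 FPKM to 5.17, 9.76 and 10.8 FPKM in basal spikelets and falling from 33.3, 31.6 and 34.3 FPKM to 12.9, 13.8 and 15.8 FPKM in central ones.

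For abscisic acid, the hormone of drought and bud dormancy, the cleaving enzyme of synthesis and the enzyme of breakdown went opposite ways. 9-cis-epoxycarotenoid dioxygenase, which makes the committed cut in its synthesis, had 6 of 7 members reported, 4 lower and 0 higher, with log2 differences of -1.13 to -0.30. The 5B copy (TraesCS5B03G0943700) stood at 7.96, 7.27 and 7.67 FPKM at day 9 and 3.17, 4.81 and 4.77 FPKM at day 12 (log2 -0.87 ± 0.18, adjusted p = 0.000361), above the central 0.76, 0.61 and 1.01 FPKM and 1.55, 1.48 and 1.56 FPKM. On 5D (TraesCS5D03G0099600) the values were 5.73, 5.04 and 4.65 FPKM and 1.96, 2.84 and 2.36 FPKM. Abscisic acid 8'-hydroxylase 1 (TraesCS6D03G0607800), which inactivates the hormone and was the only reported gene of 5 so described, rose from 1.33, 1.44 and 1.59 FPKM to 5.85, 6.13 and 5.86 FPKM (3.99-fold, adjusted p = 5.69e-12). Zeaxanthin epoxidase (TraesCS4A03G0510900), an earlier step of synthesis, rose from 1.05, 1.37 and 0.88 FPKM to 2.6, 3.92 and 4.02 FPKM. An abscisic stress-ripening protein gene (TraesCS4D03G0217900) was abundant, at 56.3, 49.5 and 50.9 FPKM at day 9 and 197, 246 and 214 FPKM at day 12 (log2 2.04 ± 0.12, adjusted p = 8.45e-13).

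Late embryogenesis abundant proteins and dehydrins, which protect drying cells, had 9 of 39 reported members higher (23.1%) and 10 lower (25.6%), with 113 in the table. These shares were near the 22.7% and 19.7% of all reported models. With the FPKM rule on the other 28 libraries, 9 and 16 of 63 members were called. Their median was -0.15 in basal and 1.56 in central spikelets, and the steps differed downward for 20 and upward for 3. Dehydrin COR410 (TraesCS6D03G0573700) fell from 125, 147 and 150.3 FPKM to 86.1, 94.95 and 97.6 FPKM in basal spikelets and rose from 66.7, 53.8 and 59.7 FPKM to 176, 174 and 149.8 FPKM in central ones. The desiccation-related protein PCC13-62-like (TraesCS1A03G0224600) had the opposite steps: 0.08, 0 and 0.08 FPKM at day 9 and 2.9, 5.18 and 4.5 FPKM at day 12 in basal spikelets (log2 6.11 ± 0.41, adjusted p = 1.91e-14; 5.52 without day 9 replicate 2) against 13.8, 11.8 and 14.04 FPKM and 4.11, 4.18 and 4.62 FPKM in central ones. The 3 dormancy-associated protein 1-like genes, markers of resting buds in other plants, rose in basal spikelets by log2 0.66 to 1.13. The 4B copy (TraesCS4B03G0155100) had 104, 76.1 and 74.4 FPKM at day 9 and 168, 218 and 179 FPKM at day 12, while its central values were 9.4, 9.31 and 10.4 FPKM and 62.4, 61.2 and 55.6 FPKM; for all 3 the central rise was the larger and the steps differed.

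Clock genes, which keep daily time, moved differently in the 2 positions. The 4 reported models with LHY in their descriptions, a morning factor, all had steps that differed upward in basal spikelets. Protein LHY on 7B (TraesCS7B03G0535400) rose from 4.41, 3.7 and 3.62 FPKM to 8.9, 8.19 and 8.17 FPKM (log2 1.07 ± 0.11, adjusted p = 1.22e-08), while central spikelets fell from 35.2, 28.9 and 29.1 FPKM to 8.77, 9.23 and 8.47 FPKM. The 7A and 7D copies (TraesCS7A03G0737400 and TraesCS7D03G0704300) rose by 0.89 and 1.15 on the log2 scale in basal spikelets, with central steps of -1.68 and -2.03; a MYB-related model (TraesCS7A03G1347400) fell in both positions, by 1.79-fold in basal spikelets and with a central step of -4.27 (basal adjusted p = 0.0681 with limma on log2(FPKM + 1)). GIGANTEA, an afternoon component, moved little in basal spikelets. The 3D copy (TraesCS3D03G0245500) had 11.9, 12.3 and 12.5 FPKM at day 9 and 11.7, 9.89 and 10.7 FPKM at day 12 (log2 -0.22 ± 0.09, adjusted p = 0.0531), and the 3A copy (TraesCS3A03G0253100) had 14.4, 16.5 and 15.4 FPKM and 16.2, 12.6 and 13.6 FPKM, ranges that overlap. For 3A the adjusted p was 0.0494, and it was 0.114 to 0.259 without day 9 replicate 2, day 9 replicate 3, day 12 replicate 2 or day 12 replicate 3, and 0.217 with library totals only. For 3D it was 0.047 without day 12 replicate 1. In central spikelets 3D went from 2.9, 3.48 and 3.4 FPKM to 12.8, 12.98 and 13.1 FPKM.

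All 11 reported pseudo-response regulators, which repress the morning genes, had steps that differed downward in basal spikelets; within basal spikelets 2 of them rose and 1 fell. APRR3-like on 4D (TraesCS4D03G0224500) stood at 17.2, 17.2 and 18.3 FPKM at day 9 and 17.6, 15.3 and 16.9 FPKM at day 12, against 3.58, 3.62 and 3.49 FPKM and 15.3, 16.5 and 15.3 FPKM in central spikelets. PRR1-like (TraesCS6D03G0514700) rose from 13.7, 12.9 and 14.2 FPKM to 22.6, 18.6 and 21.1 FPKM (log2 0.57 ± 0.07, adjusted p = 7.66e-07), less than in central spikelets (5.78, 5.9 and 5.41 FPKM and 20.6, 20.96 and 20.4 FPKM). LUX-like (TraesCS5D03G0387500), an evening component, rose from 0.66, 0.9 and 0.59 FPKM to 4.8, 5.62 and 5.07 FPKM (7.04-fold). Over the list, 11 of 31 reported clock genes rose and 3 fell (5 fell without day 12 replicate 1), and the steps differed upward for 10 and downward for 14. The hour of sampling is not given in the sources used here, and the part of the clock genes' change in the differences between positions was not tested.

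**Figure D3:**
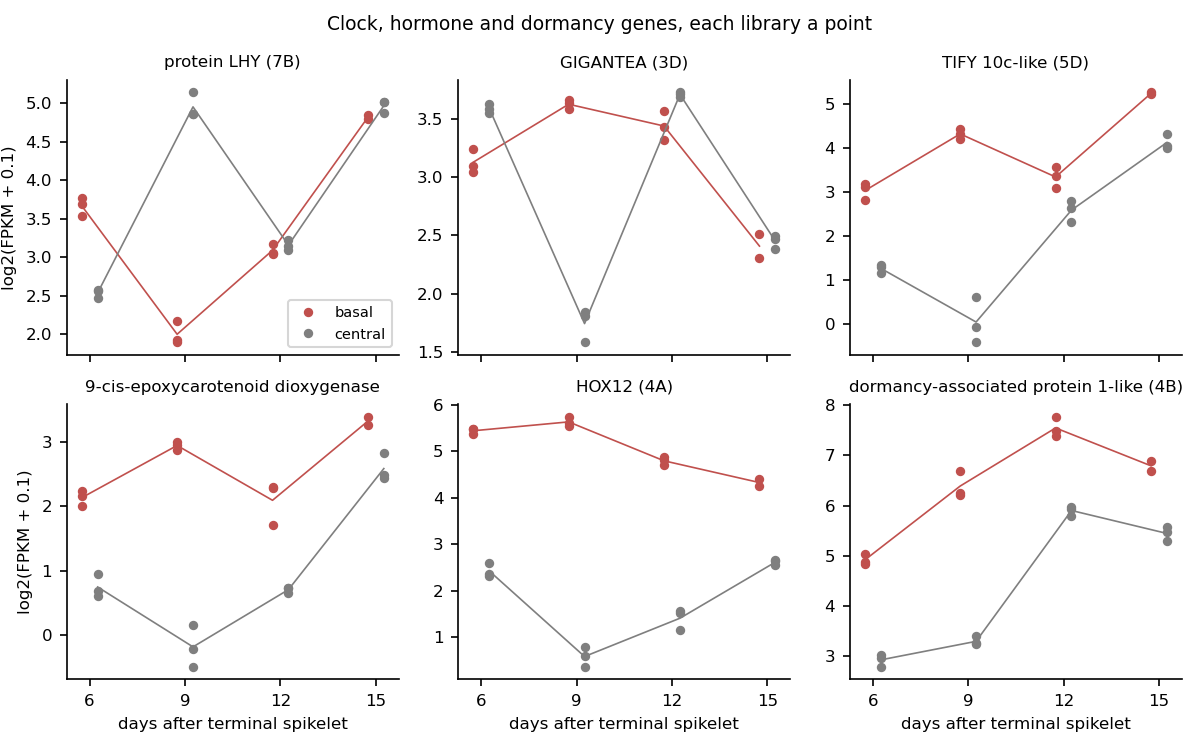
FPKM of 6 clock, hormone and dormancy genes on a log2(FPKM + 0.1) scale against days after the terminal spikelet stage; each point is 1 library, red basal and grey central spikelets, and lines join the group means. Between days 9 and 12 LHY rises in basal and falls in central spikelets, TIFY 10c-like, the dioxygenase and HOX12 fall in basal and rise in central spikelets, and the dormancy-associated gene rises in both.

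Sugar genes were described by step of use. Sucrose transporters, which load and unload sucrose across membranes, had 7 of 22 members reported, 6 higher and 0 lower, and no member's step differed from the central one. Sucrose transporter 2A on 5D (TraesCS5D03G0002100) had 7.66, 7.98 and 7.12 FPKM at day 9 and 15.3, 15.7 and 15.9 FPKM at day 12 (log2 1.01 ± 0.07, adjusted p = 3.86e-11), and 8.96, 9.32 and 9 FPKM and 18.7, 18.1 and 17.4 FPKM in central spikelets. The difference of the steps for this gene was 0.02 ± 0.10 (adjusted p = 0.95). Sugar transport as a whole had 37 of 83 higher and 6 lower (3 lower without day 9 replicate 1). SWEET15-like (TraesCS7B03G0136700), an exporter named for senescing leaves in Arabidopsis, fell from 12.7, 8.82 and 9.84 FPKM to 2.8, 3.78 and 3.94 FPKM in basal spikelets and rose from 3.27, 3.57 and 3.84 FPKM to 9.58, 7.86 and 9.64 FPKM in central ones.

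Sucrose synthases, which cleave sucrose for wall and starch making, were split, with 2 of 8 reported members higher and 4 lower (19 in the table). The 7D gene TraesCS7D03G0082900 rose from 4.14, 3.72 and 3.16 FPKM to 17.3, 16.3 and 16.5 FPKM (log2 2.16 ± 0.14, adjusted p = 1.61e-12), whereas TraesCS7D03G0358200 fell from 28.4, 30.3 and 34.7 FPKM to 14.6, 13.6 and 14.4 FPKM (log2 -1.17 ± 0.14, adjusted p = 3.3e-07). The first also rose in central spikelets, by a log2 difference of 2.15 ± 0.13 (adjusted p = 1.55e-12), and the second had a central step of 0.58 ± 0.14 (adjusted p = 0.00238). Cell wall invertases had 3 of 8 reported members higher and 2 lower, and summed to 59.5 to 62.1 FPKM at day 9 and 57.1 to 59.7 FPKM at day 12. Among them beta-fructofuranosidase insoluble isoenzyme 4-like (TraesCS5D03G1214500) fell from 30.6, 29.2 and 30.1 FPKM to 12.4, 14.5 and 10.9 FPKM. Sucrose-cleaving genes as a whole rose in 10 of 32 reported members (31.25%) and fell in 9 (28.1%). Over all reported models the shares were 22.7% and 19.7%. With the FPKM rule on the other 28 libraries, 18 of 54 rose and 11 fell. Trehalose metabolism genes include synthases, which make trehalose 6-phosphate, a reporter of sucrose supply, and phosphatases, which remove it. The list fell in 14 of 37 and rose in 5 (2 or 3 in each fit that left out a library other than day 12 replicate 1). Synthases had 11 of 21 lower and 2 higher, and phosphatases 3 of 16 lower and 3 higher. A trehalose-phosphate synthase (TraesCS5D03G0327500) fell from 3.88, 4.61 and 4.86 FPKM to 3.13, 2.67 and 3.24 FPKM (1.51-fold). In starch synthesis 17 of 47 fell (36.2%) and 11 rose (23.4%), against 19.7% lower and 22.7% higher over all reported models. A large subunit of glucose-1-phosphate adenylyltransferase (TraesCS1D03G0983500), the gateway enzyme, fell from 69.8, 74.9 and 72.6 FPKM to 34.7, 32.9 and 34.8 FPKM, with a central step of -1.08 ± 0.13 (adjusted p = 2.68e-07).

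Other hormones were described by their lists, to be read against 22.7% higher and 19.7% lower over all reported models. Auxin genes rose in 71 of 191 and fell in 21; SAUR genes, quick targets of auxin in growing organs, rose in 19 of 40 and fell in 2, with 53.7 to 56.6 FPKM at day 9 and 109 to 132 FPKM at day 12 in sum. Auxin response factor 13-like (TraesCS7D03G1098600) fell from 5.6, 4.35 and 5.02 FPKM to 1, 1.65 and 1.55 FPKM (log2 -1.86 ± 0.19, adjusted p = 2.63e-08). Ethylene genes rose in 52 of 154 and fell in 13, and ethylene-responsive element binding protein 1 (TraesCS7B03G0166400) fell from 30.2, 31.2 and 30.3 FPKM to 18.7, 18.7 and 18.2 FPKM. Cytokinin genes fell in 10 of 57 (17.5%), a share under that of all reported models. They rose in 5 (1 to 3 rose without any 1 day 9 replicate and without day 12 replicate 2 or 3). A cytokinin riboside phosphoribohydrolase (TraesCS1B03G1034600), which frees active cytokinin, fell from 10.9, 10.04 and 10.2 FPKM to 4.42, 3.91 and 4.64 FPKM (log2 -1.29 ± 0.15, adjusted p = 2.2e-07). The gibberellin receptor GID1-like (TraesCS1D03G0613500) fell from 31.7, 26.5 and 27.2 FPKM to 17.98, 22.3 and 19.3 FPKM and rose in central spikelets from 6.75, 6.93 and 6.47 FPKM to 12.1, 11.7 and 10.3 FPKM.

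The remaining lists are given by their counts, to be read against 22.7% higher and 19.7% lower over all reported models. Jasmonate response genes had 5 of 52 higher and 9 lower, with 8 higher without day 12 replicate 1. Abscisic acid synthesis genes as a whole had 5 of 19 higher and 4 lower (3 higher without day 12 replicate 1), and abscisic acid signalling genes had 8 of 43 higher and 12 lower. Starvation and dormancy genes had 4 of 25 higher and 6 lower. Starch breakdown genes had 10 of 40 higher and 8 lower, with 5 lower without day 9 replicate 1, day 9 replicate 3 or day 12 replicate 1. Homeobox and growth-regulating factors, which pattern and enlarge organs, had 39 of 119 higher and 15 lower, and B-box and CONSTANS-like genes, regulators that respond to light, 17 of 41 higher and 0 lower (1 lower without day 9 replicate 2, day 12 replicate 2 or day 12 replicate 3). Pistil and ovule genes had 1 of 8 higher and 0 lower (0 or 2 higher without 1 of the libraries other than day 12 replicate 1). Gibberellin genes had 10 of 37 higher and 4 lower, brassinosteroid genes 9 of 27 higher and 6 lower, proteases and autophagy genes 37 of 161 higher and 17 lower, and glutathione S-transferases 17 of 75 higher and 10 lower.

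**Figure D4:**
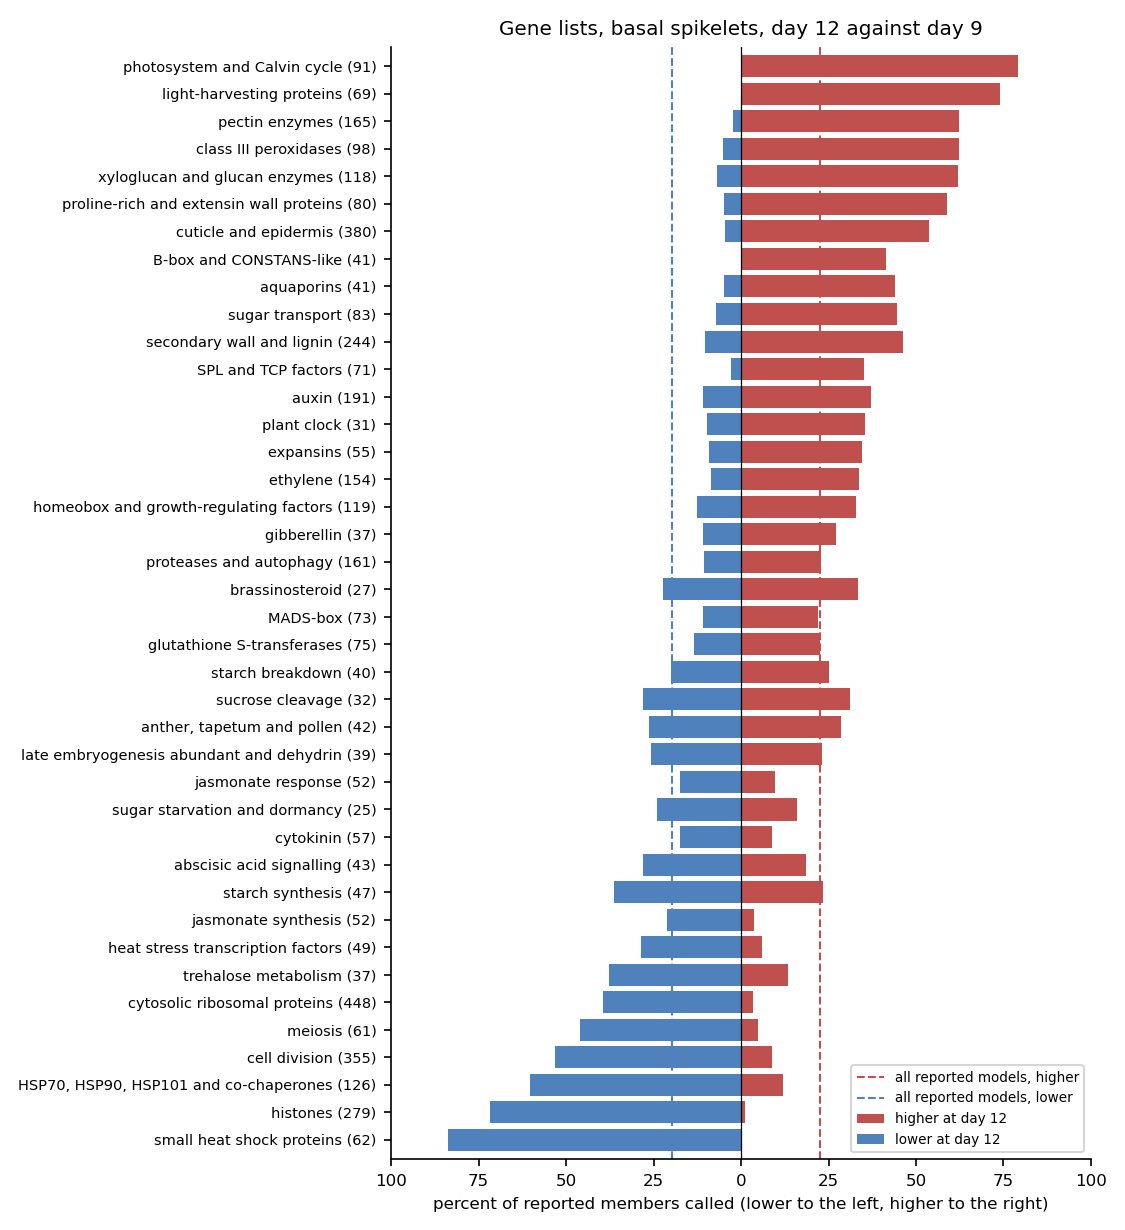
Percent of reported members called higher (red, to the right) and lower (blue, to the left) at day 12 against day 9 in basal spikelets, for each gene list with 20 or more reported members (number in parentheses). Dashed lines mark the shares over all reported models, 22.7% higher and 19.7% lower; light, wall and cuticle lists lie at the top and heat shock and histone lists at the bottom.

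Some of the largest single rises lay outside these groups or had uneven libraries. Germin-like protein 8-14 (TraesCS2A03G0146100; chromosome 2A, 37839541 to 37840841), of a family of extracellular proteins, rose from 0.06, 0.09 and 0.16 FPKM to 7.9, 11.1 and 6.65 FPKM (log2 6.25 ± 0.36, adjusted p = 5.19e-14), and central spikelets from 3.6, 3.24 and 3.25 FPKM to 33.9, 44.2 and 30.3 FPKM. An acyl-carrier-protein desaturase 7-like gene (TraesCS2B03G0205900), which makes unsaturated fatty acids in the plastid, rose from 0.18, 0.2 and 0.31 FPKM to 5.38, 5.19 and 5.38 FPKM with little spread. GDSL esterase/lipase At5g45670-like (TraesCS1A03G0837900LC) had day 9 values of 0.28, 0 and 0.01 FPKM and day 12 values of 1.5, 18.3 and 2.11 FPKM, with replicate 2 of day 12 far above the other 2. Its log2 difference was 6.30 ± 1.17 (adjusted p = 0.000103), and it was 4.22 without day 12 replicate 2, 9.54 without day 9 replicate 1 and 5.70 without day 9 replicate 2. A low-confidence model described as ribosome production factor 1 (TraesCS2B03G0388100LC) rose from 0.36, 0.45 and 0.24 FPKM to 3.4, 9.75 and 8.13 FPKM, and protein app1-like (TraesCS5A03G0993800LC) from 1.28, 1.26 and 1.34 FPKM to 19.8, 31.03 and 22.03 FPKM. Protein TsetseEP-like (TraesCS5B03G0936500) rose from 1.62, 2 and 1.35 FPKM to 19.9, 23.9 and 16.9 FPKM in basal spikelets and fell from 41.98, 35.2 and 35.2 FPKM to 9.51, 10.3 and 9.15 FPKM in central ones. A dolichyl-diphosphooligosaccharide glycosyltransferase subunit (TraesCS7A03G1006300) had 1.98, 0.89 and 2.92 FPKM at day 9 and 4.73, 32.6 and 33.97 FPKM at day 12, with replicate 1 of day 12 far under the other 2.

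Set side by side, the list medians of basal and central spikelets were close for some lists and apart for others. Histones, cell division and ribosomal proteins had medians of -0.76, -0.47 and -0.22 in basal and -1.13, -0.55 and -0.29 in central spikelets. Cuticle, proline-rich and light-harvesting lists had medians of 0.61, 1.27 and 0.70 in basal against 0.07, 0.25 and -0.19 in central spikelets. Jasmonate response and late embryogenesis abundant lists had -0.22 and -0.15 in basal against 1.22 and 1.56 in central spikelets. In the basal step from day 6 to day 9, which shares the day 9 libraries, the median of small heat shock proteins was 4.54, that of light-harvesting proteins 1.49 and that of cuticle genes 0.68. In the basal step from day 12 to day 15, which shares the day 12 libraries, these medians were 0.25, 1.43 and 0.05. Small heat shock protein members could pass the FPKM rule through the basal day 9 libraries alone. That choice of members favoured a rise into day 9 and a fall after it, so their medians are a description only.

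**Figure D5:**
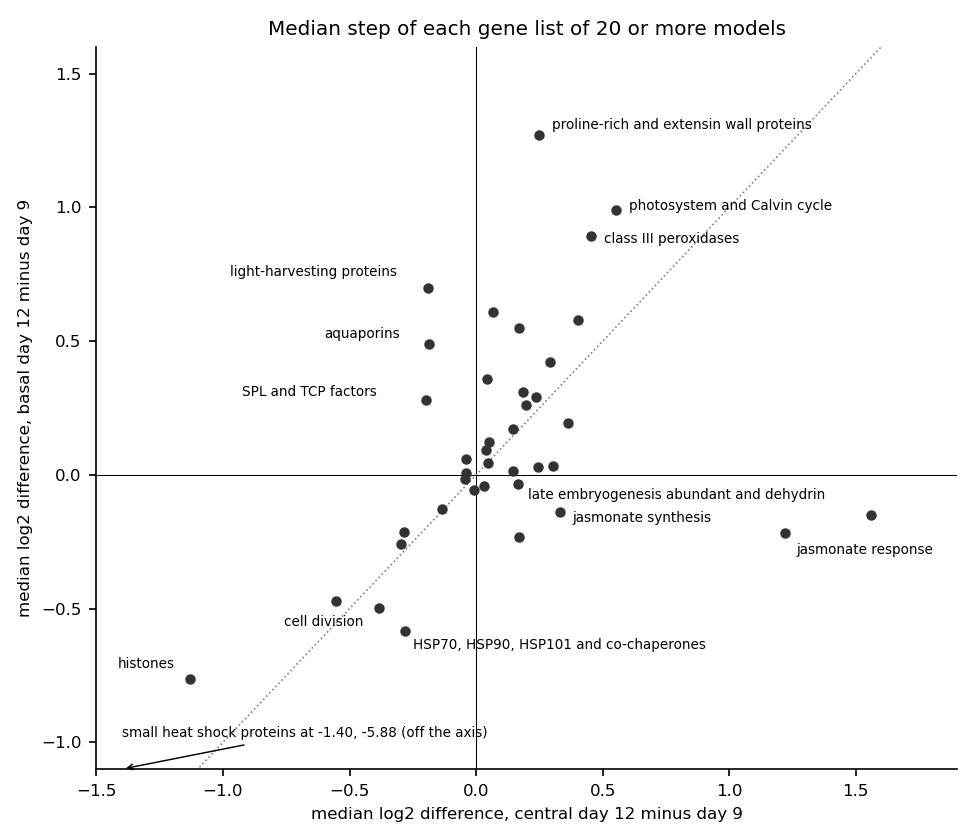
Median log2 difference between day 12 and day 9 of each gene list with 20 or more reported members, central spikelets on the x axis and basal spikelets on the y axis; the dotted line marks equal steps. Proline-rich and light-harvesting lists lie above the line, jasmonate response and late embryogenesis abundant lists below it, and small heat shock proteins (at -1.40 and -5.88) lie off the lower edge. Members of that last list could pass the FPKM rule through the basal day 9 libraries alone, which favoured a low basal median.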

How the data were processed

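The authors deposited 1 table of 162233 gene models with a position, a description and, per the file headers, an estimated count (whole numbers, not normalized) and an FPKM value, scaled by the authors for length and library total, for each of 34 libraries. The submitters' processing notes name Bowtie 0.12.2 and the mouse builds mm8 and mm9, which do not hold wheat genes; the counter, strand setting and wheat build are not given in the sources used here. Among 89539 models of the high-confidence class, 85.7% lay on a coding gene of RefSeq for assembly version 2.1 (6.36% after a shift of 5 Mb), the build named for coordinates. Of the reported models, 883 join 2 or more annotated genes, 5120 have no description and 18.2% are of the low-confidence class. Small counts lay at multiples of 4 in 33.9 to 35.6% of cases, so a fragment may have been worth several counts, the number of fragments behind a value is unknown, and the floor was set at 12 counts per library; it covers counting error only. Near-identical copies of the 3 subgenomes may share reads.

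Models with FPKM of 1 or more in at least 2 of 34 libraries (71963), with TMM factors, entered a quasi-likelihood fit of 12 group means in edgeR 4.0.16 under R 4.3.3 (glmQLFit, legacy = FALSE). The p-values were adjusted by Benjamini-Hochberg over these models, with 0.05 as the threshold. A standard error is the size of the log2 difference over the root of F. The script was tested on simulated data. The members, lists and tests were chosen with earlier results of these data known. Named genes are the 10 largest called rises and falls (1 per description, FPKM of 5 or more, groups not overlapping), the most significant higher and lower member of each of 44 lists (FPKM of 2 or more), the 5 largest differences of steps each way, and the families LHY, GIGANTEA, pseudo-response regulators, 9-cis-epoxycarotenoid dioxygenase, abscisic acid 8'-hydroxylase, TIFY, sucrose transporter, sucrose synthase, HOX12 and dormancy-associated protein 1; a selection of them is printed. Alternatives were DESeq2 1.42.0 (its size factors in edgeR, and its Wald test), no TMM factor, limma 3.58.1 on log2(FPKM + 1) and log2(FPKM + 0.1), other filters, adjustment over fewer models, only the compared libraries, a replicate block and leaving out each library. Filtering on the other 28 libraries was added after seeing the data.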

Additional observations from a re-analysis of the deposited data

Results flagged for a closer look

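Among the genes named above, those below passed the test of the difference between the basal and the central step at an adjusted p under 0.05 (edgeR quasi-likelihood fit, 3 libraries in each of the 4 groups). That test passed for 11891 of all reported models (21%). The order below ranks only the genes already named, not all models. Values are log2 changes from day 9 to day 12 in basal spikelets minus those in central spikelets. No explanation was weighed.

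At the top of the upward differences stood 7.73 for desiccation-related protein PCC13-62-like (TraesCS1A03G0224600), 5.81 for GDSL esterase/lipase At5g45670-like (TraesCS1A03G0837900LC), 5.54 for protein TsetseEP-like (TraesCS5B03G0936500), 4.83 for peroxidase 2-like (TraesCS2B03G0306900) and 3.97 for dolichyl-diphosphooligosaccharide glycosyltransferase subunit (TraesCS7A03G1006300). Next came 3.89 for cytochrome P450 704B1 (TraesCS4A03G0032700), 3.83 for peroxidase 2-like (TraesCS2D03G0228300), 3.63 for proline-rich protein 4-like (TraesCS2D03G0118400), 3.61 for Polygalacturonase (TraesCS5A03G1085200) and 3.59 for acyl-[acyl-carrier-protein] desaturase 7, chloroplastic-like (TraesCS2B03G0205900). These were followed by 3.59 for peroxidase 43-like (TraesCS4D03G0203300), 3.57 for proline-rich extensin-like protein EPR1 (TraesCS6A03G0241100), 3.43 for MYB-related protein (TraesCS7A03G1347400), 3.26 for protein app1-like (TraesCS5A03G0993800LC) and 3.18 for protein LHY (TraesCS7D03G0704300). Further upward differences were 2.89 for protein LHY (TraesCS7B03G0535400), 2.82 for Germin-like protein 8-14 (TraesCS2A03G0146100), 2.70 for 60 kDa jasmonate-induced protein-like (TraesCS2A03G1114900), 2.62 for probable beta-D-xylosidase 7 (TraesCS4B03G0679500) and 2.57 for protein LHY (TraesCS7A03G0737400). The list went on with 2.57 for transcription factor LUX-like (TraesCS5D03G0387500), 2.37 for GDSL esterase/lipase At5g45910-like (TraesCS7D03G0245800), 2.17 for ethylene-responsive transcription factor WIN1-like (TraesCS7A03G0916200), 1.86 for probable ribosome production factor 1 (TraesCS2B03G0388100LC) and 1.78 for abscisic stress-ripening protein (TraesCS4D03G0217900). Smaller ones were 1.57 for Chlorophyll a-b binding protein CP24 10A, chloroplastic (TraesCS7D03G0918200LC), 1.43 for heat stress transcription factor A-2c-like (TraesCS1D03G0889300), 1.43 for glucuronoxylan 4-O-methyltransferase 1-like (TraesCS7B03G1305600), 1.07 for abscisic acid 8'-hydroxylase 1 (TraesCS6D03G0607800) and 1.001 for homeobox-leucine zipper protein ROC6-like (TraesCS5D03G0722700). Then followed 0.90 for aquaporin PIP1-5-like (TraesCS6D03G0894100), 0.90 for squamosa promoter-binding-like protein 3 (TraesCS6A03G0258300), 0.78 for MADS-box transcription factor 1-like (TraesCS4D03G0586600), 0.65 for 60S ribosomal protein L19-1-like (TraesCS4D03G0422600) and 0.64 for BAG family molecular chaperone regulator 1-like (TraesCS5A03G0760100). The remaining upward values were 0.52 for expansin-like A1 (TraesCS5A03G1169200) and 0.39 for kinesin-like protein KIN-7H (TraesCS7B03G0457400).

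Downward, the differences began with -9.20 for 17.9 kDa class I heat shock protein-like (TraesCS4D03G0519600), -6.99 for small heat shock protein, chloroplastic-like (TraesCS4D03G0546300), -4.81 for 17.5 kDa class II heat shock protein-like (TraesCS3D03G0239400), -4.16 for probable aquaporin TIP4-1 (TraesCS4D03G0799400) and -3.85 for 70 kDa peptidyl-prolyl isomerase-like (TraesCS2B03G0768100). Below these lay -3.64 for protein TIFY 10c-like (TraesCS5D03G0513000), -3.52 for 70 kDa peptidyl-prolyl isomerase-like (TraesCS2D03G0640500), -3.43 for protein TIFY 10c-like (TraesCS5A03G0549300), -3.38 for 18.6 kDa class III heat shock protein-like (TraesCS6D03G0752200) and -2.95 for bidirectional sugar transporter SWEET15-like (TraesCS7B03G0136700). The next group held -2.32 for 9-cis-epoxycarotenoid dioxygenase (TraesCS5D03G0099600), -2.25 for two-component response regulator-like APRR3 (TraesCS4D03G0224500), -2.21 for protein GIGANTEA (TraesCS3D03G0245500), -2.10 for dehydrin COR410 (TraesCS6D03G0573700) and -1.96 for gigantea 3 (TraesCS3A03G0253100). Further down the order came -1.82 for putative 9-cis-epoxycarotenoid dioxygenase (TraesCS5B03G0943700), -1.75 for sucrose synthase 1 (TraesCS7D03G0358200), -1.74 for Homeobox-leucine zipper protein HOX12 (TraesCS4A03G0078800), -1.50 for dormancy-associated protein 1-like (TraesCS4B03G0155100) and -1.42 for 12-oxophytodienoate reductase 7 (TraesCS7A03G0999600). Then came -1.30 for gibberellin receptor GID1-like (TraesCS1D03G0613500), -1.29 for two-component response regulator-like PRR1 (TraesCS6D03G0514700), -1.19 for ethylene-responsive element binding protein 1 (TraesCS7B03G0166400), -1.02 for auxin response factor 13-like (TraesCS7D03G1098600) and -0.87 for protein YABBY 4-like (TraesCS6A03G0650400). Lower in size were -0.86 for beta-fructofuranosidase, insoluble isoenzyme 4-like (TraesCS5D03G1214500), -0.76 for trehalose-phosphate synthase (TraesCS5D03G0327500), -0.66 for cytokinin riboside phosphoribohydrolase (TraesCS1B03G1034600), -0.58 for kinesin-like protein KIN-14H (TraesCS2A03G1125000) and -0.33 for 40S ribosomal protein S3-3 (TraesCS2B03G0477700).

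Leaving out 1 library ended some of these calls: the 17.9 kDa class I heat shock protein-like gene (TraesCS4D03G0519600) had an adjusted p of 0.0526 without central day 12 replicate 1, the 17.5 kDa class II gene (TraesCS3D03G0239400) one of 0.368 without central day 12 replicate 2, the GDSL esterase/lipase At5g45670-like gene (TraesCS1A03G0837900LC) one of 0.0811 without basal day 12 replicate 2 and 0.177 without central day 9 replicate 2, and auxin response factor 13-like (TraesCS7D03G1098600) one of 0.0514 without central day 12 replicate 3. The glycosyltransferase subunit (TraesCS7A03G1006300), the cytokinin riboside phosphoribohydrolase (TraesCS1B03G1034600), expansin-like A1 (TraesCS5A03G1169200) and kinesin-like KIN-7H (TraesCS7B03G0457400) lost the call in 9, 7, 7 and 6 of the fits that left out 1 of the 12 libraries. With limma on log2(FPKM + 1) the call ended for germin-like protein 8-14 (TraesCS2A03G0146100, adjusted p = 0.988) and the ribosome production factor (TraesCS2B03G0388100LC, 0.855). The glycosyltransferase subunit lost it with both limma fits. For 40S protein S3-3 (TraesCS2B03G0477700) it ended with library totals only (0.0595), no filter (0.138), only the compared libraries (0.0506) and the replicate block (0.0882). The phosphoribohydrolase lost it with the DESeq2 Wald test, limma on log2(FPKM + 0.1), no filter and a stricter filter. The At5g45670-like gene lost it with the DESeq2 Wald test, limma on log2(FPKM + 0.1) and only the compared libraries. Expansin-like A1 lost it with no filter and with the block.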

How the results depend on the processing

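Both counts of the basal step and both counts of the difference of the steps stayed within 1.5 times the reported ones under the alternatives run, with 2 exceptions whose cause was not tested. Without a filter on FPKM, 3537 models had a downward difference of the steps, against 5365. With a replicate block on the compared libraries, 7003 models were lower in the basal step, against 11143, and 9218 were higher, against 12839. Same-numbered libraries of day 9 and day 12 had correlations of their deviations of -0.185, -0.125 and 0.0851 over 55045 models. Not every library correlated best with its own number. With 3 libraries per day the deviations within a day cancel out, so these values cannot decide whether the numbers pair the samples. Leaving out 1 library gave 10386 to 12947 models higher and 8991 to 10355 lower in the basal step, and 4859 to 7468 and 4449 to 6004 in the difference of the steps. Among the genes chosen by the naming rule, no called one reversed its sign under these alternatives. For these genes, the basal step lost its call in 46 and gained it in 23 combinations of gene and alternative, and was unchanged in 2737; for the difference of the steps these numbers were 139, 44 and 3682. Counts within lists stayed within 1.5 times in 1395 of 1496 combinations; the block gave 81 ribosomal protein genes lower. The share of calls that were rises was 53.5% with TMM and 60.5% with library totals only. Depth limits the small heat shock genes at day 12, where counts are few.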
